A study of Homo sapiens with 6 samples.

Results

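The myeloid C-type lectins are cell-surface receptors, with a secreted relative, that share a fold first described in calcium-dependent sugar-binding proteins. Monocytes, macrophages, neutrophils and dendritic cells use them to recognise fungal, mycobacterial and viral glycans, lipids of damaged cells and crystals. Receptors with an activating function use a tyrosine motif of their own or of a partner chain, FCER1G or TYROBP. They signal to the kinase SYK and on to the CARD9, BCL10 and MALT1 complex. Receptors with an inhibitory motif (ITIM) recruit the phosphatases PTPN6, PTPN11 and INPP5D instead.

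The set was given as 9 gene names, CLEC4D, CLEC4E, CLEC4A, CLEC5A, CLEC7A, CLEC10A, CLEC11A, CLEC12A and CLEC12B, and 8 of these were matched by name among the 31853 genes of the deposited table. CLEC10A was not analysed here. The genes were chosen by family name with the WD6305 against DMSO results of these data already known. Their differences between the groups are therefore given as a description, with no test of their own, and a call in the fit across all genes is quoted only beside its background.

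Mon-Mac-6 is a human cell line of monocytic type, established from acute leukaemia. The cells were cultured for 48 h with the vehicle DMSO or 500 nM WD6305, which the series title names as a PROTAC against METTL3, the catalytic subunit of the m6A writer. A PROTAC brings its target protein to an E3 ubiquitin ligase. Each treatment had 3 poly(A) RNA libraries from this single line, and no other treatment or genotype entered. The labels do not state separate cultures for the replicates, so errors and p-values measure the spread between libraries, which may be technical. Deposited counts summed to between 64525948 and 71155346 per library. Counts pile up at 4 among low genes, with 1071 to 1176 genes at a count of 4, 553 to 636 at 3 and 357 to 380 at 5. Should each pair of reads add 4 counts, libraries held 16131487 to 17788836 pairs.

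Markers of the line were present, and 7 of 10 monocytic markers were higher under WD6305, among them CD68, LYZ, CSF1R and ITGAM, while CD14 and MPO were lower. Over all 18138 tested genes 12.2% were called higher and 11.2% lower. Keratinocyte transcripts, not markers of a monocytic line, summed to 201 to 246 CPM (counts relative to library size, scaled by TMM) in 4 libraries. In these KRT5 was at 63.4 to 79.3 CPM. DMSO 3 and WD6305 1 had sums of 6.86 and 6.61 CPM, mostly KRT10 at 6.31 and 6.13 CPM, with KRT5 at 0.131 and 0.0778 CPM. The source of these transcripts was not tested. Each group held 1 library with a low sum, and member values without both are given below. Those values rest on the 4 libraries with high sums alone.

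Of the 8 members, 4 were higher under WD6305, 2 entered the fit with too few counts to resolve a difference, and 2 were too low to test. CLEC11A, CLEC5A, CLEC12A and CLEC4D were the 4 that rose (adjusted p under 0.05, edgeR quasi-likelihood test over 18138 genes), and 0 of the 6 tested members fell, with 0 lower at an unadjusted p under 0.05 and 0 in DESeq2 or limma. The median log2 fold change of the 6 was 0.81, against 0.00 over all tested genes. That median lies between CLEC11A at 0.66 and CLEC4E at 0.96 (SE 1.16), whose counts were too few to resolve a difference. Across all tested genes 12.2% were called higher and 11.2% lower. Every WD6305 library lay above every DMSO library for the same 4 members, as it did for 20.4% of tested genes. Nothing is read from these shares, since the genes were proposed with this contrast in view. In bulk RNA, more cells with a transcript and more transcript per cell cannot be told apart.

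The 3 sequences below are shown because they lie upstream of 3 of the 4 members that rose, at very different expression levels. Each is the stretch from base 250 to base 51 before the RefSeq transcription start (GRCh38.p14), 5′ to 3′ on the gene's strand. RefSeq promoters were matched for 5 of the 8 members: CLEC4E, CLEC5A, CLEC11A, CLEC12A and CLEC12B. Capitals mark GAGGAA, a purine box of the kind bound by the myeloid factor PU.1, or TTNCNNAA, a C/EBP-type motif, on either strand, and neither motif overlaps the other in the printed stretches.
CLEC11A (chr19:50723114-50723313, + strand): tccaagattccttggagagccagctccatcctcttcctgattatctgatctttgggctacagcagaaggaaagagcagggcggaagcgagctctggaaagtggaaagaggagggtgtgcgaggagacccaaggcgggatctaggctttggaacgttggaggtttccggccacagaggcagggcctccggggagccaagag
CLEC5A (chr7:141947025-141947224, - strand): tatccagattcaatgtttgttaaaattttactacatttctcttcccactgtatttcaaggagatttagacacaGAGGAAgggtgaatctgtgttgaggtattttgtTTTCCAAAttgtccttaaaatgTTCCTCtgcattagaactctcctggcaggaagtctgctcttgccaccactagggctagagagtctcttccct
CLEC12A (chr12:9971159-9971358, + strand): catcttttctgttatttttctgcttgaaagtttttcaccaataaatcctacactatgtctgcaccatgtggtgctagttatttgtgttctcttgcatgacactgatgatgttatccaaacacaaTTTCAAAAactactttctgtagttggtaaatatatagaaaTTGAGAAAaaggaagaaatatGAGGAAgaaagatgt

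The CLEC11A stretch held neither motif and had a GC content of 57.5% with 7 CpG pairs, against medians of 57.0% and 7 over 27305 RefSeq promoters of this length. The CLEC5A stretch had 40.0% GC and 0 CpG pairs, with 2 GAGGAA matches and 1 TTNCNNAA match. The CLEC12A stretch had 32.0% GC and 0 CpG pairs, with 1 GAGGAA and 2 TTNCNNAA matches. CLEC4E and CLEC12B, which were not called, had the same match counts, 1 GAGGAA and 2 TTNCNNAA each. Their stretches, not printed, had 36.5% and 44.0% GC with 1 CpG pair each. The matches thus did not set apart the members that rose. GAGGAA was found in 19.0% of all such stretches and TTNCNNAA in 29.7%. TATAAA, in 7.79% of them, was searched too and had 0 matches in the 5 members. No GENCODE v29 exon overlapped the 3 printed stretches. The RefSeq start of CLEC12A lies 20093 bases downstream of the gene start in the deposited table. A match is a string of letters in a window and says nothing of binding.

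CLEC11A is the secreted member, a growth factor for haematopoietic progenitors and bone-forming cells. Its gene spans chr19:50723364-50725708 on the plus strand (GRCh38). With DMSO its level was 367, 353 and 387 CPM in libraries 1, 2 and 3, and with WD6305 it was 521, 646 and 587 CPM. All WD6305 libraries were above all DMSO libraries, and WD6305 1, the lowest of its group, was still well clear of DMSO 3. The means were 369 ± 16.8 and 585 ± 62.4 CPM (SD, n = 3 libraries per group), a 1.58-fold difference (log2 0.66, SE 0.08).

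CLEC5A is an activating receptor that has almost no signalling tail of its own, pairs with TYROBP and HCST, and is known for binding dengue virus on myeloid cells. Its gene spans chr7:141927357-141947007 on the minus strand. The level was 25.5, 24.2 and 30.0 CPM with DMSO and 37.7, 39.4 and 35.0 CPM with WD6305. The closest libraries were DMSO 3 and WD6305 3, and the groups did not overlap. The means of 26.6 ± 3.03 and 37.3 ± 2.21 CPM (SD, n = 3 per group) differed 1.41-fold (log2 0.49, SE 0.10), the smallest change of the 4. CLEC5A lies inside the span of MGAM on the opposite strand, and although the library protocol marked the strand, its use in the counting is not stated in what was read here. MGAM had 4.48 ± 0.760 and 5.74 ± 0.352 CPM and did not pass (log2 0.36, SE 0.16, edgeR adjusted p = 0.137), and its part in the CLEC5A counts was not tested.

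CLEC12A is an inhibitory receptor with an ITIM, known for sensing urate crystals and as a surface antigen of acute myeloid leukaemia cells. Its gene spans chr12:9951316-9985595 on the plus strand. Its level was 2.93, 2.61 and 2.23 CPM with DMSO and 5.88, 7.60 and 6.14 CPM with WD6305, and the groups were well apart. The means were 2.59 ± 0.352 and 6.54 ± 0.928 CPM (SD, n = 3 per group), 2.53-fold apart (log2 1.34, SE 0.17). The antisense gene CLEC12A-AS1 overlaps its upstream end, and its deposited counts of 0 to 15 per library compare with 153 to 523 for CLEC12A.

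CLEC4D, a receptor for the mycobacterial glycolipid trehalose dimycolate that works together with CLEC4E, had the largest change of the members. Its gene spans chr12:8509475-8522366 on the plus strand. It was counted 67, 89 and 73 times under DMSO and 267, 228 and 180 times under WD6305. In CPM these were 0.943, 1.33 and 1.06 against 4.16, 3.31 and 2.69. Even the lowest WD6305 library, WD6305 3, was above the highest control, DMSO 2. The means of 1.11 ± 0.198 and 3.39 ± 0.733 CPM (SD, n = 3 per group) were 3.05-fold apart (log2 1.61, SE 0.24). Among the 2218 genes called higher, 47 had a log2 fold change at least as large, counting CLEC4D itself, against 92 for CLEC12A, 583 for CLEC11A and 991 for CLEC5A.

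**Figure D1:**
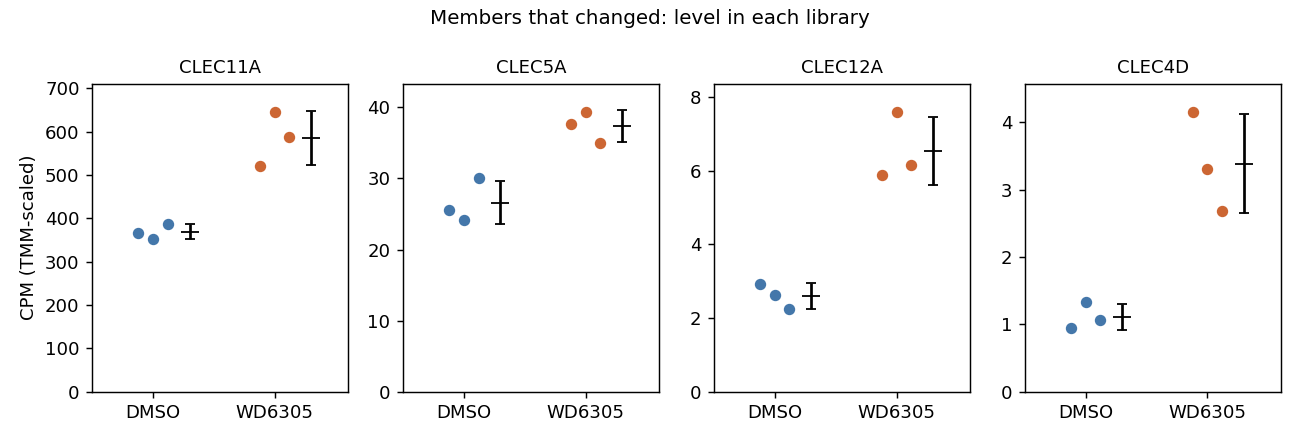
Level of the 4 members that rose in each library, in CPM on linear axes that start at 0, with points for libraries and a bar for the mean ± SD of 3 libraries. In each panel the 3 WD6305 points lie above the 3 DMSO points, from CLEC11A at 353 to 646 CPM down to CLEC4D at 0.943 to 4.16 CPM.

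The other 4 members were at or near 0. CLEC4E, the activating receptor that signals through FCER1G and is the known partner of CLEC4D, was counted 4, 12 and 4 times in the DMSO libraries against 0, 27 and 12 times under WD6305. The treated group held both the lowest and the highest value, so the groups overlapped. It entered the fit with a log2 fold change of 0.96 and an SE of 1.16, an error wide enough to span a fall as well as a rise. Its gene spans chr12:8533305-8540905 on the minus strand, beside CLEC4D. CLEC4E was at 0.0563 to 0.179 CPM with DMSO and 0 to 0.392 CPM with WD6305, so whether it changed alongside CLEC4D cannot be told.

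CLEC12B, an inhibitory ITIM receptor, was counted 12, 6 and 16 times in the DMSO libraries and 11, 7 and 14 times under WD6305. The ranges were nearly the same, and the fitted log2 fold change was -0.03 with an SE of 0.69, so that a difference of the size seen for CLEC5A was not detectable at this depth. CLEC1B, a platelet and myeloid lectin on the opposite strand, overlaps its span. CLEC1B had counts of 4, 0 and 7 against 26, 21 and 13 (log2 2.47, SE 0.95) and did not pass (edgeR adjusted p = 0.0970). It was singled out after its values were seen.

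CLEC4A, the ITIM-bearing receptor at chr12:8123617-8138607 on the plus strand, was counted 0, 14 and 9 times under DMSO and 0, 0 and 6 times under WD6305, and did not pass the filter on low counts. Both groups held a library at 0. CLEC7A, the beta-glucan receptor (chr12:10116777-10130257, minus strand), had 0 counts in all 6 libraries. A count of 0 allows up to 3 counts, or 0.0422 to 0.0465 CPM depending on the library, and 0.169 to 0.186 CPM if 1 read pair is worth 4 counts. These limits cover counting error only. No fold is given for either gene.

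**Figure D2:**
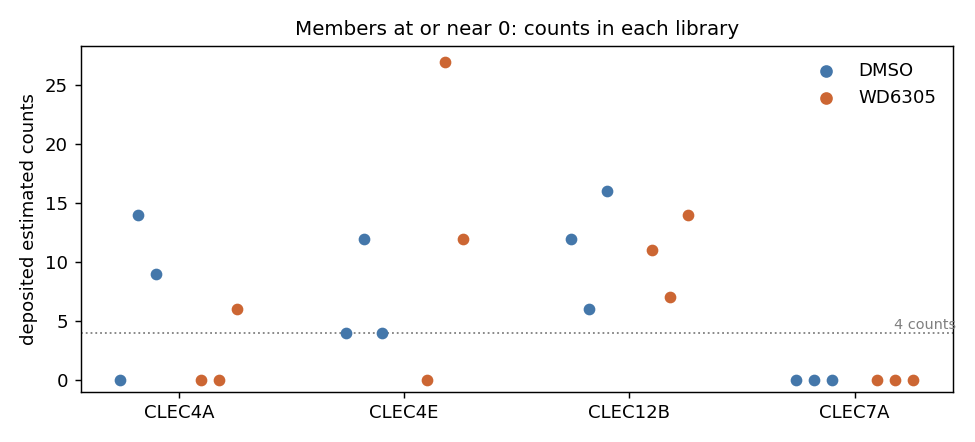
Deposited estimated counts of CLEC4A, CLEC4E, CLEC12B and CLEC7A in each library, with a dotted line at 4 counts. DMSO and WD6305 points overlap for each gene, with 27 counts for CLEC4E in WD6305 2 as the highest value and CLEC7A at 0 throughout.

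Levels of different genes are compared in FPKM, which accounts for transcript length. Under DMSO the order was CLEC11A at 247 ± 14.3, CLEC5A at 6.12 ± 0.784, CLEC12A at 0.747 ± 0.0950 and CLEC4D at 0.510 ± 0.0917 FPKM (SD, n = 3). Neighbours among these 4 did not overlap over the DMSO libraries, although CLEC12A at 0.65 to 0.84 and CLEC4D at 0.43 to 0.61 FPKM were close. CLEC4A, CLEC12B and CLEC4E followed at means of 0.0767, 0.0400 and 0.0367 FPKM, with overlapping ranges, and CLEC7A was at 0. CLEC11A ranked 116 of 31853 genes by mean FPKM under DMSO, CLEC5A 5586, CLEC12A 11697 and CLEC4D 12671. The secreted member made up 96.6% to 97.2% of the summed FPKM of the set in every library. With WD6305 the means were 385 ± 42.4 for CLEC11A, 8.46 ± 0.553 for CLEC5A, 1.87 ± 0.271 for CLEC12A and 1.55 ± 0.341 FPKM for CLEC4D. The order of these 4 means was the same, but CLEC12A at 1.68 to 2.18 and CLEC4D at 1.22 to 1.90 FPKM now overlapped. Fold changes were larger for the 2 low receptors than for the 2 more abundant members. They did not simply reverse the order of levels, since CLEC11A at 1.58-fold was above CLEC5A at 1.41-fold.

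The receptors on chromosome 12 fall into 2 clusters of lectin genes. CLEC4A, CLEC4D and CLEC4E are in the first, and CLEC12A, CLEC12B and CLEC7A in the other. The table held 48 further genes whose start lies within 250 kb of the start of a chromosome 12 member, and 19 of them were tested. Of these 0 were called higher (edgeR), 0 by DESeq2 and 0 by limma on FPKM, with 1 higher at an unadjusted p under 0.05. With 12.2% higher and 11.2% lower over all tested genes, counts this small among 19 genes are no result about the neighbours. The sugar transporter gene SLC2A3 was called lower (log2 -0.35, SE 0.09, edgeR adjusted p = 0.0264), a call lost with any of 4 libraries left out, namely the first or the second of DMSO and the first or the third of WD6305 (edgeR adjusted p = 0.0774 to 0.109), and with no filter (0.0608). The median log2 fold change of the 19 was -0.01, against 0.00 over all tested genes. C3AR1, a complement receptor gene of the CLEC4A neighbourhood, had a log2 fold change of -0.10, CLEC2B -0.20 and CLECL1 -0.01, and none of these passed. The calls in the 2 clusters were thus CLEC4D and CLEC12A higher and SLC2A3 lower.

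**Figure D3:**
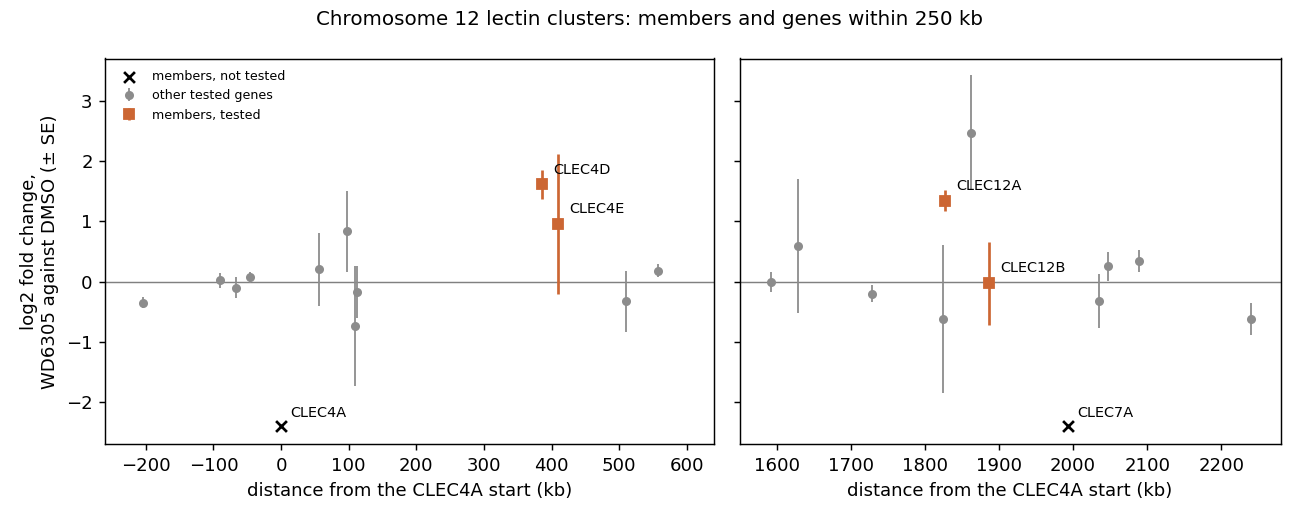
Log2 fold change with SE of tested genes in the 2 chromosome 12 lectin clusters, plotted by distance in kb from the CLEC4A start, with members in orange, other genes in grey and untested members as crosses at the foot. CLEC4D at 1.61 and CLEC12A at 1.34 stand above most neighbours, while CLEC1B at 2.47 has an SE of 0.95.

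Profiles of log2 CPM over the 6 libraries, each centred on its own mean, were compared by distance. Among genes with a symbol, members aside, the 3 most like CLEC4D were the pseudogene PRORSD1P, the chemoattractant receptor gene FPR2 and RIMBP3. Their root mean square distances were 0.18, 0.19 and 0.20. Genes without a symbol were left out. FPR2 was counted 13, 20 and 17 times under DMSO and 50, 61 and 33 times under WD6305. Among members CLEC12A was nearest, at 0.33, followed by CLEC11A at 0.54 and CLEC5A at 0.60. These distances rest on 6 libraries in 2 groups, and reads of RIMBP3 may be shared with near-identical copies.

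GGACT, in DNA letters the most common core of the m6A consensus, was counted in the longest GENCODE v29 protein-coding transcript of each member, since WD6305 is directed at the m6A writer. It occurred 2 times in CLEC11A (1.41 per kb), 2 in CLEC12A (1.29 per kb), 2 in CLEC5A (0.570 per kb) and 1 time in CLEC4D (0.517 per kb). Over 13411 tested genes the quartiles were 0.571 and 1.40 per kb and the median 0.936. Among the 4 members that rose, CLEC4D and CLEC5A lay just below the lower quartile and CLEC11A just above the upper one. The other members had 1.85 per kb (CLEC4E), 1.56 (CLEC4A), 0.99 (CLEC12B) and 0.409 (CLEC7A). CLEC4E and CLEC4A were thus above every member that rose, and CLEC7A below. No m6A was measured in these libraries.

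Among listed genes of the activating route downstream of these receptors, more rose than fell. The list was chosen with earlier results of these data known, so its counts are given as a description. Of 23 listed genes of the adaptors and the SYK to CARD9 route, 23 were tested, 12 rose, 1 fell and 10 did not pass, against 12.2% higher and 11.2% lower of all genes. The median log2 fold change was 0.20, against 0.00 over all tested genes. All 3 adaptor chains rose. TYROBP, the partner of CLEC5A, was at 41.7, 39.8 and 37.7 CPM with DMSO and 68.4, 74.0 and 68.6 CPM with WD6305 (log2 0.82, SE 0.07, edgeR adjusted p = 0.000104). FCER1G, the partner of CLEC4D and CLEC4E, was at 104, 99.4 and 89.3 CPM and then at 159, 156 and 158 CPM (log2 0.69, SE 0.06, edgeR adjusted p = 0.000152). For both chains the groups were far apart. HCST, the other chain that pairs with CLEC5A, rose from 8.98 ± 0.564 to 12.9 ± 0.722 CPM.

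Further along, SYK rose 1.19-fold from 334 ± 9.55 to 396 ± 7.19 CPM, BCL10 rose 1.68-fold and TRAF6, a ubiquitin ligase of the route, 1.38-fold. NFATC2 and the NF-kB subunit genes REL and NFKB1 rose by log2 values of 1.03, 0.62 and 0.19. CARD9 and MALT1, which complete the complex with BCL10, had log2 fold changes of 0.20 (SE 0.10) and 0.21 (SE 0.09) and did not pass, and neither did PLCG2 at 0.19. VAV1, a guanine nucleotide exchange factor, fell from 149 ± 5.95 to 128 ± 1.74 CPM (log2 -0.22, SE 0.05).

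The 3 phosphatases that serve the ITIM receptors did not pass. PTPN6 had a log2 fold change of 0.05 (SE 0.06), INPP5D 0.03 (SE 0.05) and PTPN11 -0.22 (SE 0.07, edgeR adjusted p = 0.0565). In edgeR 0 of 3 were called, with 1 lower at an unadjusted p under 0.05, while DESeq2 called 1 lower and limma on FPKM 0.

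Genes known to be induced when activating lectins are engaged mostly did not pass. Of 17 listed, 16 were matched and 13 tested, with 1 higher, 2 lower and a median log2 fold change of -0.26. These shares of 7.69% and 15.4% are near the 12.2% and 11.2% of all tested genes, so the counts are no result about the list. TNF fell from 31.1, 30.7 and 24.1 CPM with DMSO to 11.1, 14.2 and 13.6 CPM with WD6305 (log2 -1.14, SE 0.13, edgeR adjusted p = 0.000434). IL1B fell by 0.55 (SE 0.09) on the log2 scale, and NFKBIA, the inhibitor of NF-kB, rose by 0.36 (SE 0.08). IL10 was at 0 in all 6 libraries. No ligand was added in this design beyond the treatment named in the labels.

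Of 6 ligand and partner genes 2 rose and 1 fell (33.3% and 16.7%, against 12.2% and 11.2% of all tested genes), with a median log2 fold change of 0.08. TLR2, a receptor that cooperates with CLEC7A, rose from 130 ± 7.87 to 182 ± 0.874 CPM, and CD63, a tetraspanin, from 375 ± 39.9 to 499 ± 28.1 CPM. SF3B3, a spliceosome protein that CLEC4E binds once dying cells release it, fell from 357 ± 7.56 to 299 ± 4.70 CPM (log2 -0.26, SE 0.04), and was put on the list after results were known, in place of a gene listed under the protein's alias. ITGA11, a chain of the integrin that binds CLEC11A, was at 0.323 ± 0.207 and 0.258 ± 0.385 CPM.

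**Figure D4:**
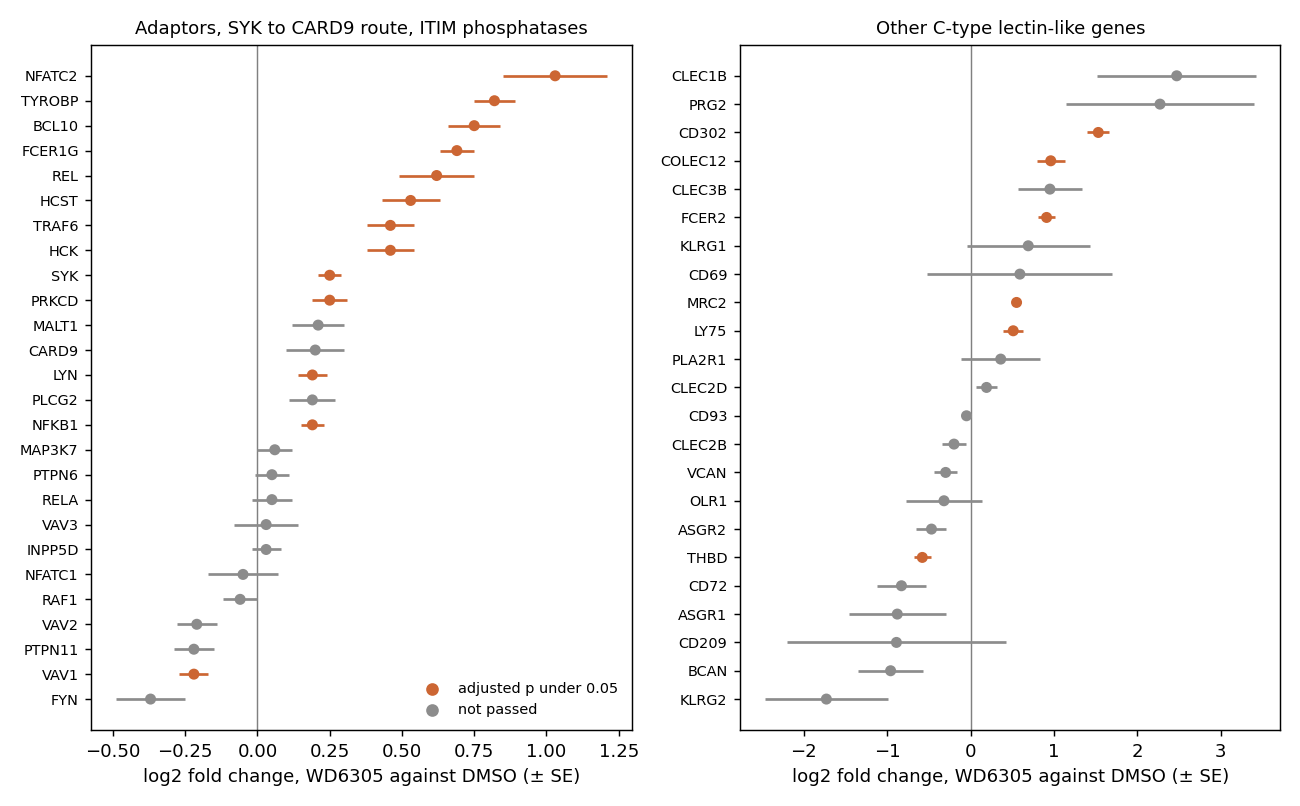
Log2 fold change with SE for tested genes of the signalling route and phosphatases (left) and for other C-type lectin-like genes (right), with calls at an adjusted p under 0.05 in orange. The 3 adaptor chains TYROBP, FCER1G and HCST lie at 0.82, 0.69 and 0.53, and CD302 at 1.53 has the largest change among the called genes of the right panel.

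Other genes with a C-type lectin-like domain were compared as the nearest set. Of 69 listed, 44 were matched and 23 tested, of which 5 rose and 1 fell (21.7% and 4.35%, against 12.2% and 11.2% of all genes), with a median log2 fold change of 0.19. CD302, an endocytic receptor of myeloid cells, rose from 11.6, 14.3 and 12.3 to 40.3, 30.2 and 39.8 CPM (log2 1.53, SE 0.13, edgeR adjusted p = 0.000132). MRC2, the collagen receptor of the mannose receptor family, rose 1.46-fold, its relative LY75 1.42-fold, FCER2, the low-affinity IgE receptor, 1.87-fold, and the scavenger receptor COLEC12 1.95-fold. THBD, thrombomodulin, fell from 12.8 ± 1.06 to 8.54 ± 0.324 CPM. The mannose receptor MRC1 was at 0.0194 CPM with DMSO and 0 with WD6305 and was not tested. CD93, a receptor of monocytes and endothelium with the highest FPKM of the listed genes under DMSO, was at 402 ± 15.1 and 387 ± 14.5 CPM and did not pass. Whether the 8 members differ from this set was not tested, since the members were proposed with the contrast known.

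CLEC4D, CLEC5A and CLEC12A are also found on neutrophils, and CLEC4A and CLEC7A on dendritic cells, so markers of other cells were read beside them. Of 7 mature neutrophil markers 4 were matched, with summed levels of 17.2 to 18.1 CPM with DMSO and 24.0 to 26.9 CPM with WD6305, and the part of this in the member results was not tested. Almost all of this was CXCR2, a chemokine receptor, which rose from 17.4 ± 0.529 to 25.7 ± 1.55 CPM, while MMP8 was at 0 in every library and FCGR3B and MMP9 were at 0 with WD6305. Of 10 dendritic markers 6 were matched, and their sum was 5.27 to 6.45 CPM with DMSO and 5.28 to 5.93 CPM with WD6305. Most of it was IL3RA, an interleukin receptor chain, at 4.51 to 5.56 and 5.23 to 5.87 CPM. CD1A was counted 8, 12 and 13 times under DMSO and 0 times under WD6305, and was too low to test. XCR1 was at 0 throughout and CCR7 fell from 0.797 ± 0.263 to 0.0607 ± 0.0599 CPM, a call lost without DMSO 3 and WD6305 1 (edgeR adjusted p = 0.0679). T and NK cell markers (6 of 10 matched, KLRD1 at 0) summed to 151 to 182 and 137 to 168 CPM, nearly all of it NKG7. B cell markers (4 of 6) summed to 1.94 to 3.10 and 2.35 to 2.96 CPM, and erythroid and platelet markers (3 of 7) to 2.44 to 2.70 and 1.86 to 3.17 CPM. Of these 3 lists, and of the 8 keratinocyte markers tested, 0 genes were called in edgeR, 0 had an unadjusted p under 0.05, and DESeq2 and limma on FPKM called 0.

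The 4 member calls were seen in all 12 alternatives. Without DMSO 3 and WD6305 1 the log2 fold changes were 1.40 for CLEC4D, 1.31 for CLEC12A, 0.78 for CLEC11A and 0.58 for CLEC5A. On limma's log2(FPKM + 1) scale, whose pseudocount shrinks the change of low genes, CLEC4D had 0.75 and CLEC12A 0.71, closer to the 0.63 of CLEC11A and the 0.42 of CLEC5A. Leaving out 1 library at a time gave 1.44 to 1.75 for CLEC4D, 1.21 to 1.43 for CLEC12A, 0.59 to 0.74 for CLEC11A and 0.43 to 0.59 for CLEC5A.

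**Figure D5:**
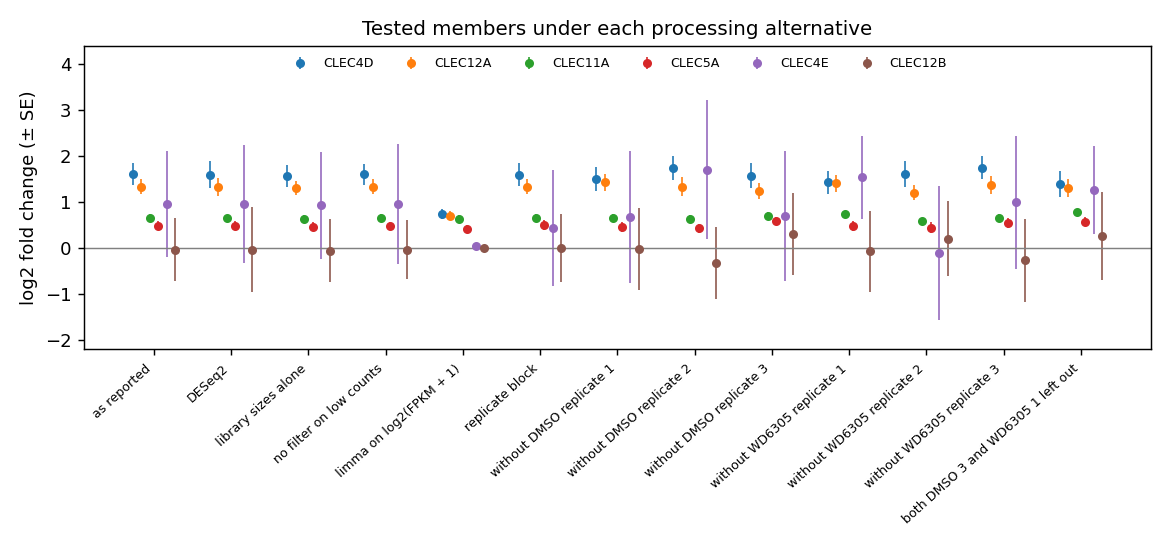
Log2 fold change with SE of the 6 tested members in the reported fit and in 12 alternatives. CLEC4D, CLEC12A, CLEC11A and CLEC5A stay above 0 in each, down to 0.42 for CLEC5A in limma, while CLEC4E and CLEC12B have SE bars that reach 0 in most settings.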

How the data were processed

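Poly(A) RNA of 6 Mon-Mac-6 libraries, 3 per treatment, was sequenced. The submitters' processing notes name GRCh38 and the tools HISAT2, fastp, StringTie and edgeR. Their versions and settings are not stated in the sources read. The deposited table gives estimated counts and FPKM values per gene and library, as named in the file headers. The authors' FPKM is relative to transcript length and library size, rounded to 0.01. The counts were already whole, so rounding left them as they were. The table held 0 further columns of samples.

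Genes were filtered with filterByExpr, scaled with TMM factors (0.987 to 1.02) and compared by the two-sided quasi-likelihood test of edgeR 4.0.16 under R 4.3.3, with Benjamini-Hochberg adjustment over 18138 genes at 0.05. The common biological coefficient of variation was 20.8%. SE came from the F value. Alternatives used DESeq2 1.42.0, limma 3.58.1 on log2(FPKM + 1), library sizes alone, no filter, a replicate block, and fewer libraries. Replicates of a group differed by more than counting noise (chi-square per degree of freedom 3.78 to 10.5 on counts divided by 4). The fit was tested on simulated data. The simulated counts had less spread than these libraries and no low genes were changed, so that test does not cover members near 0.

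Members and lists were chosen with earlier results of these data known. The lists hold 178 entries, 134 of them matched. Named genes are all members, up to 4 per list by adjusted p and up to 4 neighbours. The 3 nearest profiles, taken among genes with a symbol, are named too. Other list genes named for their role, or because their count was small, were chosen after their values were seen. RefSeq promoters and GENCODE v29 transcripts gave sequences.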

Additional observations from a re-analysis of the deposited data

How the results depend on the processing

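All genes called numbered 2218 higher and 2031 lower, with 1446 to 2563 and 1310 to 2077 on leaving out 1 library each, lowest without WD6305 3. Counts of genes called higher among the members, the 5 partner lists and the neighbours stayed within 1.5-fold of their reported values in all 12 alternatives. Counts of genes called lower were small and moved more. With 1 library left out they were 1 to 3 among other lectin-like genes, 1 to 2 in the SYK to CARD9 route, 0 to 1 among the phosphatases and 0 to 2 among the neighbours. Without both DMSO 3 and WD6305 1 they were 2 among other lectin-like genes, 2 in the route and 2 among neighbours. With limma on FPKM 2 other lectin-like genes were lower. DESeq2 and library sizes alone each gave 3 in the route and 1 among the phosphatases. The cause was not tested.

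CLEC4E and CLEC12B, which never passed, changed sign: CLEC4E to -0.11 without WD6305 2, and CLEC12B to 0.01 with the replicate block, 0.31 without DMSO 3, 0.21 without WD6305 2 and 0.26 without both DMSO 3 and WD6305 1, with leave-one-out ranges of -0.11 to 1.71 and -0.32 to 0.31. The replicate block called 1736 genes higher and 1468 lower and kept the 4 member calls. Deviations of libraries with the same number correlated at -0.23, 0.01 and -0.15 over 11144 genes. Deviations from a mean of 3 libraries are tied to each other, so these values cannot settle whether equal numbers share a culture or day. Other pairs gave -0.12 to 0.23, highest for DMSO 3 with WD6305 1, the 2 libraries low in keratinocyte transcripts. Groups of 3 libraries are too small for an outlier test. At this depth CLEC4A, CLEC4E, CLEC7A and CLEC12B gave no usable comparison.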
